A study of Rattus norvegicus with 48 samples.

Results

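The genes described here are 100 rat genes whose transcripts were abundant in liver, scarce in testis, little different between the highest dose of a fungicide and its vehicle, and yet very unequal among livers that received the same dose. Levels are given in CPM, the reads of a gene divided by all reads assigned to genes in that library and scaled to 1 M. Of 32545 genes in the files, 6838 averaged at least 10 CPM over the 24 livers, and 700 of these averaged under 2 CPM over the 24 testes. Of the 700, 654 differed by less than 1 between the 400 mg/kg and vehicle livers in mean log2(CPM + 0.5), with 2 genes set aside by ID. The 100 of the 654 with the highest standard deviation (SD) of log2(CPM + 0.5), once each dose group's mean had been subtracted, are the members, chosen by these measured values, and the other 554 are called the other liver-restricted genes below. "Liver-restricted" therefore refers to liver against testis alone, and the levels, the spread and the limit on the difference at 400 mg/kg are choices, not results.

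The livers and testes came from adult male Sprague-Dawley rats, Crl:CD (SD), aged 8 to 10 weeks when the study began. All rats were gavaged once a day for 14 days with corn oil at 4 ml/kg, alone as the vehicle or carrying myclobutanil at 1 of 3 doses, 30, 150 and 400 mg/kg. Polyadenylated RNA was sequenced in 6 libraries for every dose and tissue. Libraries are named here by the number in their title, 2403 to 2408 for vehicle, 2409 to 2414 for 30 mg/kg, 2415 to 2420 for 150 mg/kg, with 2421 to 2426 for 400 mg/kg, and each number occurs once per tissue.

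Hepatocytes, the main cells of the liver, make most plasma proteins, the enzymes of bile acid synthesis and many enzymes that metabolise foreign compounds, and many genes for these products are transcribed little elsewhere. Myclobutanil is a triazole that blocks a sterol-synthesis enzyme of fungi, and triazoles are known in rodent liver for inducing drug-metabolising enzymes. Sprague-Dawley is an outbred stock, so rats of 1 dose group are not genetically identical.

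The files pair no gene ID with a name, and 0 of the 32545 IDs matched the reference table, so members are given by ID without a role, and marker genes of liver cell types could not be examined. Gene reads came to 31.8 to 49.1 M per liver library and 30.9 to 49.2 M per testis library. Depth, and mapping quality in testis, separated 3 sets of libraries: 5 vehicle and 5 of 30 mg/kg in the first, 5 of 150 and 5 of 400 mg/kg in the second, and 2408, 2414, 2415 and 2421 in the third. Because RNA came from whole tissue, fewer cells of a type and less RNA per cell cannot be told apart. CPM is not corrected for gene length, so levels are compared between libraries and not between genes.

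Members had an SD within dose groups of 0.39 to 2.03 on the log2 scale, with a median of 0.49, and the other liver-restricted genes had a median of 0.18. Since the SD chose the members, these values are a description. The last 3 members inside the limit, ENSRNOG00000054344, ENSRNOG00000001957 and ENSRNOG00000009273, had SDs of 0.394, 0.393 and 0.392. The first 3 genes outside it, ENSRNOG00000007415, ENSRNOG00000029128 and ENSRNOG00000037167, had 0.386, 0.386 and 0.384. The limit thus falls in a continuous range of SDs: 55 members had an SD under 0.5 and 7 had one over 1.

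Counting error was a small part of the spread. From the reads alone, the median expected SD was 0.0421 for members, and the observed SD was 6.04 to 94.1 times the expected one, with a median of 13.8 times. The same ratio was 1.46 to 179.8 among the other liver-restricted genes, with a median of 5.83. Since the observed SD chose the members, these ratios are a description. Members averaged 10.1 to 2136 CPM in liver, with a median of 33.7 CPM beside 52.0 CPM for the other liver-restricted genes. In 27 members the mean was over 100 CPM and in 4 it was over 1000 CPM. The rule admitted only genes with a mean of at least 10 CPM in liver, so the absence of scarcer genes is a choice.

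**Figure D1:**
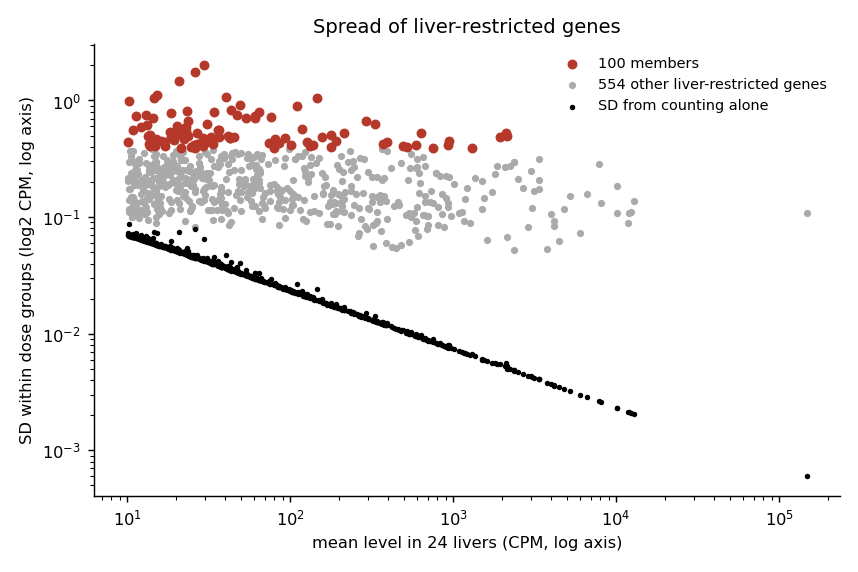
Each of the 654 liver-restricted genes is plotted by its mean level over 24 livers (x, CPM, log axis) and its SD within dose groups (y, log2 CPM, log axis), with members in red and the other 554 genes in grey; black points give the SD expected from counting reads alone. Members lie at 0.39 or above at every level from 10.1 to 2136 CPM, far above the black points.

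The spread was present at every dose. Median SDs of members within a group were 0.49 with vehicle, 0.51 at 30 mg/kg, 0.48 at 150 mg/kg and 0.54 at 400 mg/kg. The group with the highest SD was vehicle for 16 members, 30 mg/kg for 29, 150 mg/kg for 22 and 400 mg/kg for 33. Among the other liver-restricted genes the medians were 0.158, 0.170, 0.161 and 0.168 in the same order of doses. The highest SD fell in those groups for 126, 141, 133 and 154 of the 554 genes. Because the rule chose members by the SD pooled over these 4 groups, the values are a description.

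No liver held most of the large deviations. The share of a member's squared deviations that came from its most extreme liver had a median of 19.4%, beside 20.2% in the other liver-restricted genes. It exceeded 25% in 28 of the 100 members and in 151 of the 554 other genes. The most extreme liver lay below its group mean for 55 members and above it for 45. Liver 2411, at 30 mg/kg, was the most extreme one for 14 members, 8 high and 6 low, and for 11.01% of the other liver-restricted genes. Livers 2412 and 2423 followed with 9 and 8 members, beside 1.625% and 3.791% of the other liver-restricted genes. Livers 2410, 2416 and 2417 were the most extreme for 0 members, beside 2.708%, 1.986% and 2.166% of the other genes. The 4 deep libraries of the third set were the most extreme for 15 members, beside 17.9% of the other genes.

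Several members did not vary smoothly but had levels in separate ranges. A gap of at least 1 on the log2 scale, a doubling of CPM + 0.5, with at least 2 livers on each side of it was found in 7 of the 100 members and in 0 of the 554 other liver-restricted genes. The rule chose members by spread, which favours such gaps, so the counts are a description. In 6 of the 7 each side of the gap held livers of more than 1 dose group.

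ENSRNOG00000000768 had the highest SD of all members, 2.03. Its lowest, median and highest levels were 0.0552, 43.6 and 52.3 CPM among vehicle livers, 0.303, 20.6 and 33.8 CPM at 30 mg/kg, 0.152, 18.1 and 45.7 CPM at 150 mg/kg, and 22.7, 27.0 and 91.2 CPM at 400 mg/kg. Transcripts were nearly absent from 3 livers, 2403, 2409 and 2415, which came from 3 different dose groups and held 2, 11 and 7 reads. In the other 21 livers the gene had 450 to 3510 reads, and the gap between 0.303 and 12.8 CPM was 4.05 on the log2 scale.

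ENSRNOG00000010731 was low in some of the same livers. From lowest to median to highest, it had 2.27, 13.2 and 21.0 CPM among vehicle livers, 1.52, 10.7 and 20.6 CPM at 30 mg/kg, 1.59, 12.8 and 23.6 CPM at 150 mg/kg, and 14.3, 23.7 and 29.8 CPM at 400 mg/kg. The 4 low livers were 2406, 2409, 2411 and 2415, at 1.52 to 3.37 CPM, and the other 20 had 9.78 to 29.8 CPM. Livers 2409 and 2415 were thus low for both genes, but 2403 had 10.6 CPM of ENSRNOG00000010731, and 2406 had 12.8 CPM and 2411 had 28.7 CPM of ENSRNOG00000000768. Over 24 livers the deviations of the pair correlated at r = 0.613, a description without a test.

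ENSRNOG00000007564 divided the livers most evenly. Its lowest, median and highest levels were 3.58, 21.4 and 45.7 CPM among vehicle livers, 3.67, 6.34 and 50.4 CPM at 30 mg/kg, 4.50, 7.24 and 46.5 CPM at 150 mg/kg, and 6.39, 20.3 and 78.5 CPM at 400 mg/kg. In 15 livers the level was 3.58 to 8.66 CPM, and in 9 livers it was 33.5 to 78.5 CPM, with none between. The 9 high livers were 2403, 2404 and 2407 with vehicle, 2413 at 30 mg/kg, 2415 and 2416 at 150 mg/kg, and 2421, 2423 and 2426 at 400 mg/kg.

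ENSRNOG00000029844 was high in a minority of livers. The lowest, median and highest values were 16.4, 20.5 and 29.0 CPM among vehicle livers, 15.7, 30.9 and 145 CPM at 30 mg/kg, 17.1, 19.9 and 149 CPM at 150 mg/kg, and 14.3, 17.9 and 116 CPM at 400 mg/kg. Livers 2411, 2414, 2420 and 2422 had 116 to 149 CPM and the other 20 had 14.3 to 32.6 CPM, so every vehicle liver was on the low side.

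ENSRNOG00000033619 was low in a pair of livers that were both high for ENSRNOG00000029844. Its lowest, median and highest levels were 237, 267 and 450 CPM among vehicle livers, 108, 261 and 483 CPM at 30 mg/kg, 62.9, 257 and 452 CPM at 150 mg/kg, and 243, 276 and 450 CPM at 400 mg/kg. Liver 2420 had 62.9 CPM and 2411 had 108 CPM, and the other 22 livers had 227 to 483 CPM. The deviations of these genes correlated at r = -0.607 over 24 livers, although 2414 and 2422, high for the first gene, had 227 and 271 CPM of the second.

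ENSRNOG00000005420 was the member whose low livers came from 400 mg/kg alone. Its range, given as lowest, median and highest, was 8.04, 13.9 and 20.6 CPM among vehicle livers, 8.43, 16.7 and 42.7 CPM at 30 mg/kg, 6.98, 12.4 and 18.0 CPM at 150 mg/kg, and 1.12, 7.22 and 36.3 CPM at 400 mg/kg. Livers 2421, 2423 and 2424 had 1.12 to 2.71 CPM, while 2422 and 2426 of the same group had 35.0 and 36.3 CPM, above every vehicle liver. The 400 mg/kg group therefore lay on both sides of the vehicle range, and its SD of 1.95 on the log2 scale was the widest of the 4 groups, beside 0.49 with vehicle.

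ENSRNOG00000017286 was low in 1 vehicle liver and a pair of 400 mg/kg livers. Its lowest, median and highest levels were 11.8, 58.5 and 70.5 CPM among vehicle livers, 31.5, 54.3 and 76.7 CPM at 30 mg/kg, 31.3, 62.2 and 85.4 CPM at 150 mg/kg, and 6.35, 38.6 and 64.8 CPM at 400 mg/kg. Livers 2408, 2423 and 2426 had 6.35 to 11.8 CPM and the other 21 had 31.3 to 85.4 CPM. A pair of further members came close to the limit: ENSRNOG00000054930, with a gap of 0.97 below which lay 2403, 2404 and 2426 at 0.882 to 1.91 CPM, and ENSRNOG00000000795, with a gap of 0.96 below which lay 2408, 2419 and 2424 at 2.47 to 3.42 CPM.

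**Figure D2:**
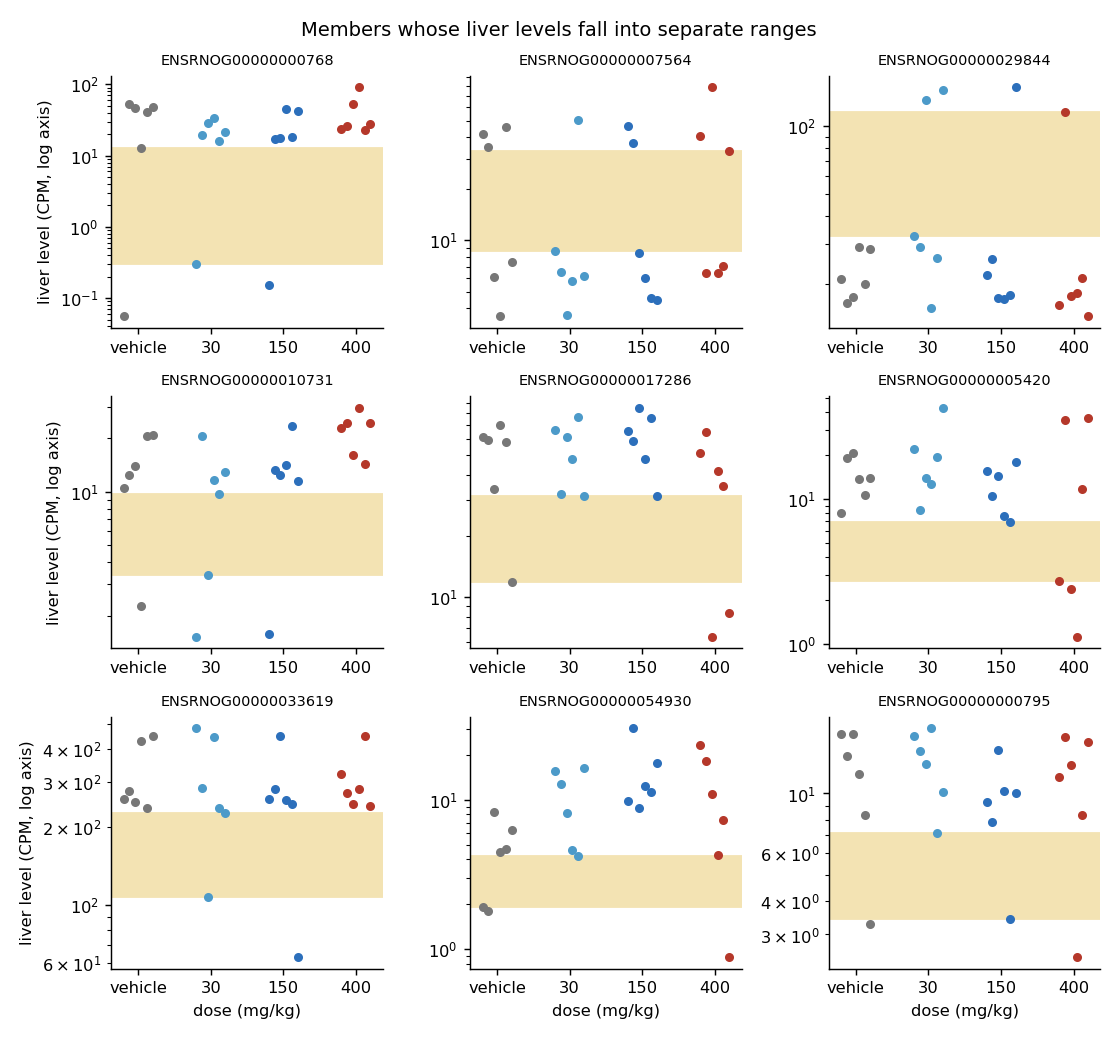
Liver levels (y, CPM, log axis) of 9 members in each of 24 livers, 6 per dose group (x, vehicle, 30, 150 and 400 mg/kg); each point is 1 library and the shaded band is the widest gap with at least 2 livers on each side. The band is 4.05 log2 units high for ENSRNOG00000000768 and 0.96 for ENSRNOG00000000795, and livers of several dose groups lie on either side except for ENSRNOG00000005420, whose low side holds only 400 mg/kg livers.

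ENSRNOG00000029543, with the second highest SD of 1.77, had no such gap. In ascending order, its lowest, median and highest levels were 4.09, 12.1 and 82.2 CPM among vehicle livers, 1.71, 10.5 and 54.0 CPM at 30 mg/kg, 6.52, 36.1 and 77.7 CPM at 150 mg/kg, and 1.54, 14.6 and 48.5 CPM at 400 mg/kg. The widest break between neighbouring levels over the 24 livers, with at least 2 on each side, was 0.64 on the log2 scale, and all 4 groups overlapped. Within 400 mg/kg the livers lay apart, at 1.54 to 2.73 CPM in 2424, 2425 and 2426 and 26.4 to 48.5 CPM in 2421, 2422 and 2423, and levels of the other groups filled the space between. ENSRNOG00000047945, with an SD of 1.05, was lowest in 2426 at 21.0 CPM and 2419 at 26.1 CPM, and highest in 2420 at 392 CPM.

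Members did not vary as 1 block. Over the 4950 pairs of members, the median absolute correlation of deviations from the dose-group means was 0.192, beside 0.184 for pairs of the other liver-restricted genes. Strong correlations were more frequent among members: 94 pairs, or 1.90%, passed 0.7 in absolute value, beside 0.339% of pairs of the other genes. The rule chose members by the spread of these same deviations, so the 2 shares are a description. Members were joined by average linkage on 1 minus the correlation, with a limit of 0.5. This gave 11 co-varying groups of at least 3 members, which held 60 members in groups of 9, 9, 7, 7, 6, 5, 4, 4, 3, 3 and 3. A further 22 members formed 11 pairs, and 18 stood alone. The groups are read from the livers that define them and carry no test. Because the sign of the correlation counts, genes that move in opposite directions tend to fall in separate groups. Opposed groups can therefore be sides of 1 pattern.

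Groups 1 and 2 moved in opposite directions, with a correlation of -0.879 between their mean deviations. Group 1 is led by ENSRNOG00000016595, ENSRNOG00000029543 and ENSRNOG00000054344. ENSRNOG00000016595 had lowest, median and highest levels of 36.7, 92.1 and 208 CPM among vehicle livers, 39.3, 56.6 and 187 CPM at 30 mg/kg, 57.3, 153 and 256 CPM at 150 mg/kg, and 37.6, 82.4 and 161 CPM at 400 mg/kg. Its highest liver in each group was 2403, 2411, 2415 and 2423, and its lowest was 2408, 2412, 2420 and 2425. The mean deviation of the 9 members was highest in 2411, at 1.08 on the log2 scale, and lowest in 2408, at -0.85.

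Group 2 is led by ENSRNOG00000030321, ENSRNOG00000009222 and ENSRNOG00000011490. ENSRNOG00000030321 had lowest, median and highest levels of 43.7, 78.6 and 121 CPM among vehicle livers, 32.5, 82.1 and 157 CPM at 30 mg/kg, 24.9, 62.1 and 103 CPM at 150 mg/kg, and 40.9, 69.1 and 135 CPM at 400 mg/kg. Its lowest livers at 30 and 150 mg/kg were 2411 and 2415, where ENSRNOG00000016595 was highest. Its highest livers with vehicle and at 150 mg/kg, 2408 and 2420, were those where ENSRNOG00000016595 was lowest. The mean of the 9 members was lowest in 2411, at -0.89, and highest in 2420, at 0.72. Deviations of group 2 were shared by many genes beyond the list: 131 of 6827 other liver genes of at least 10 CPM correlated with its mean at 0.7 or more, and 17 at -0.7 or less. For group 1 the counts were 8 and 31. Group 3 had 101 and 24 of 6829 other genes, and group 5 had 50 and 107 of 6830, so such sharing was not particular to group 2.

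Groups 3 and 5 also opposed each other, at -0.726. Group 3, led by ENSRNOG00000013267, ENSRNOG00000054946 and ENSRNOG00000020653, was highest in 2423, at 0.78, and lowest in 2421, at -0.82. Group 5, led by ENSRNOG00000013907, ENSRNOG00000021463 and ENSRNOG00000005871, was lowest in 2423, at -0.67, and highest in 2426, at 0.64. ENSRNOG00000013267 had 43.9, 71.6 and 135 CPM as its lowest, median and highest levels at 400 mg/kg, and ENSRNOG00000013907 had 34.2, 52.1 and 96.2 CPM there. The lowest liver of ENSRNOG00000013907 in that group, 2423, was the highest of ENSRNOG00000013267.

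The mean deviation of group 7 varied most at the highest dose. The group holds ENSRNOG00000005420, ENSRNOG00000005250, ENSRNOG00000030021 and ENSRNOG00000058780, and the first pair followed each other closely at r = 0.977. At 400 mg/kg the SDs of that pair were 1.95 and 1.36, beside 0.59 for ENSRNOG00000030021 and 0.62 for ENSRNOG00000058780. ENSRNOG00000058780 had its highest SD with vehicle, at 0.79. ENSRNOG00000005250 had lowest, median and highest levels of 12.8, 19.6 and 29.0 CPM among vehicle livers, 10.99, 26.7 and 50.4 CPM at 30 mg/kg, 13.8, 19.9 and 28.3 CPM at 150 mg/kg, and 4.96, 15.9 and 54.2 CPM at 400 mg/kg. ENSRNOG00000005420 and ENSRNOG00000005250 were both lowest in 2424 and highest at 400 mg/kg in 2426. The mean deviation of the group was 1.35 in 2426 and 1.14 in 2422, beside -1.26 in 2424 and -0.94 in 2423.

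Liver 2411 stood out in several groups at once. It had the highest mean deviation of group 1, at 1.08, and of group 10, led by ENSRNOG00000011612, ENSRNOG00000016348 and ENSRNOG00000045743, at 1.19. It had the lowest of group 2, at -0.89, and of group 9, led by ENSRNOG00000009741, ENSRNOG00000001957 and ENSRNOG00000046643, at -1.03. ENSRNOG00000016348 had 1414 CPM in 2411, the highest of 30 mg/kg, where the median was 529 CPM. ENSRNOG00000046643 had 12.8 CPM there, the lowest of 30 mg/kg, where the median was 41.5 CPM.

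**Figure D3:**
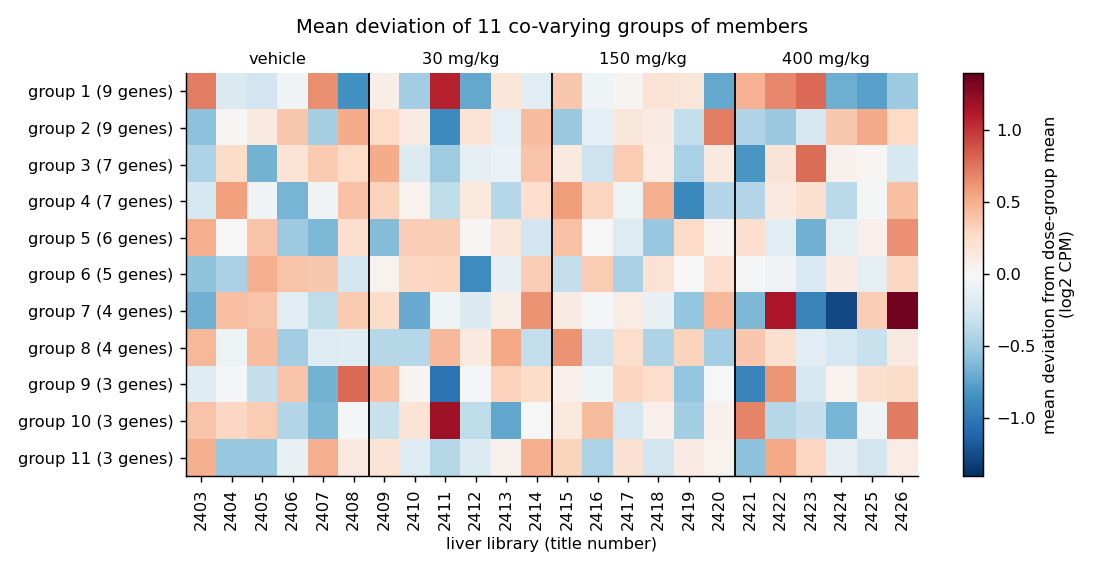
Mean deviation from the dose-group mean (colour, log2 CPM, red above and blue below) of the 11 co-varying groups of members (rows, with the number of genes) in each of the 24 livers (columns, by dose and title number). Rows 1 and 2 show opposite colours in most livers, and row 7 runs from -1.26 in liver 2424 to 1.35 in liver 2426 at 400 mg/kg.

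Group 4, led by ENSRNOG00000017414, ENSRNOG00000001963 and ENSRNOG00000028895, was highest in 2415 and 2404, both at 0.58, and lowest in 2419, at -0.91. Group 6, led by ENSRNOG00000013925, ENSRNOG00000018086 and ENSRNOG00000025648, was lowest in 2412, at -0.88. Group 8, led by ENSRNOG00000024061, ENSRNOG00000046468 and ENSRNOG00000000827, ran from -0.48 in 2406 to 0.63 in 2415, and 186 other liver genes correlated with its mean at -0.7 or less. Group 11, ENSRNOG00000016044, ENSRNOG00000015858 and ENSRNOG00000025115, ran from -0.58 in 2421 to 0.54 in 2422.

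Some of these means moved with library measures. With the share of reads falling outside genes, the mean deviation correlated at 0.573 for group 4, 0.554 for group 9, 0.534 for group 2 and 0.503 for group 7 over the 24 livers. With the share of reads lacking a unique alignment it correlated at 0.481 for group 1 and -0.51 for group 2. With the number of gene reads the correlations of the 11 groups were -0.134 to 0.307. These are descriptions without a test, and the part of these measures in the groups was not tested.

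Among the 5 members with the highest mean CPM, a pair moved almost as 1 gene. ENSRNOG00000021405 had lowest, median and highest levels of 1585, 2528 and 4521 CPM among vehicle livers, 1356, 1659 and 4230 CPM at 30 mg/kg, 1139, 1886 and 2462 CPM at 150 mg/kg, and 1438, 1850 and 2736 CPM at 400 mg/kg. ENSRNOG00000059330 had 743, 1107 and 1812 CPM among vehicle livers, 586, 754 and 1670 CPM at 30 mg/kg, 517, 824 and 1134 CPM at 150 mg/kg, and 605, 795 and 1199 CPM at 400 mg/kg. Their deviations correlated at 0.981, both were highest in 2408 with vehicle and in 2412 at 30 mg/kg, and the 4 dose groups overlapped for each. Of the other 3, ENSRNOG00000010079 averaged 2117 CPM, ENSRNOG00000013004 averaged 1939 CPM and ENSRNOG00000001957 averaged 1303 CPM. ENSRNOG00000013004 was highest in 2425 at 400 mg/kg, with 3504 CPM, and lowest in vehicle liver 2407, with 1108 CPM. ENSRNOG00000001957 was lowest in 2421 at 400 mg/kg, with 522 CPM, and highest in vehicle liver 2408, with 1824 CPM.

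Comparisons between doses asked whether any member moved with myclobutanil beyond its spread. They were made with edgeR's quasi-likelihood test on the 13275 liver genes that passed its filter on low counts, which all 100 members did, and a gene was called at a Benjamini-Hochberg adjusted p under 0.05. Because the members were chosen for wide spread and for a small difference at 400 mg/kg from vehicle, few calls could follow. The median standard error (SE) of a member's log2 fold change was 0.27, beside 0.10 for the other liver-restricted genes, in each comparison.

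At 30 mg/kg against vehicle, 0 members were called by edgeR, where 0.0151% of all genes tested were called. An unadjusted p under 0.05 was reached by 7 members, beside 5.24% of all genes, and DESeq2 and limma-voom called 0 each. At 150 mg/kg against vehicle, edgeR called 0 members, beside 1.49% of all genes, with 12 members and 15.7% of all genes at an unadjusted p under 0.05. DESeq2 called 2 there, ENSRNOG00000054930 higher and ENSRNOG00000006019 lower, beside 499 of 13275 genes tested, and limma-voom called 0. Apart from 1 third-set liver per dose, the vehicle and 30 mg/kg livers are in the first set and the 150 mg/kg livers in the second, so a dose difference across them is tied to the set except through the third-set livers. With each set as a term in edgeR, 0 members were called at 150 mg/kg against vehicle and 0 against 30 mg/kg, with 15 and 16 at an unadjusted p under 0.05; DESeq2 was not run with that term. At 150 against 30 mg/kg, edgeR called 0 members, beside 0.151% of all genes, with 11 members and 12% of all genes at an unadjusted p under 0.05, and DESeq2 and limma-voom called 0 each. The median log2 fold changes of the 100 members were -0.05, -0.03 and -0.06 in these 3 comparisons, and 0.00, -0.01 and 0.00 over all genes tested.

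Against vehicle at 400 mg/kg the rule fixed the range of the differences, so no test is given. The mean differences in log2(CPM + 0.5) ran from -0.996 to 0.97, with 44 members above 0 and 56 below. ENSRNOG00000000768 and ENSRNOG00000010731 had differences of 0.97 and 0.89. Both have 1 or more low vehicle livers and no low liver at 400 mg/kg.

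Between 400 and 150 mg/kg, 5 members were called: 1 was higher and 4 were lower at 400 mg/kg. The share of all genes called was 5%, with 2.65% higher and 2.35% lower, so the members' count is at the background. An unadjusted p under 0.05 was reached by 18 members and 20.9% of all genes. Among the other liver-restricted genes 64 of 554 were called, 8 higher and 56 lower. In 2 members the 6 and 6 livers did not overlap, where 4.63% of all genes had no overlap. The median log2 fold change of the members was -0.13, with 31 of 100 above 0. It was -0.09 among the other liver-restricted genes, with 184 of 554 above 0, and 0.01 over all genes tested. This comparison uses the same 400 mg/kg livers as the limit in the rule, so its values are not independent of how the members were chosen.

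ENSRNOG00000040195 fell at 400 mg/kg in every liver relative to 150 mg/kg. It had lowest, median and highest levels of 11.5, 16.6 and 17.5 CPM at 400 mg/kg, against 18.6, 30.1 and 42.9 CPM at 150 mg/kg. Vehicle livers had a median of 30.1 CPM and 30 mg/kg livers one of 28.1 CPM, but vehicle livers reached down to 16.7 CPM. The log2 fold change from 150 mg/kg was -1.09 (SE 0.23, edgeR adjusted p = 0.00983; 15.3 ± 2.59 against 30.3 ± 8.26 CPM, SD, n = 6 each).

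ENSRNOG00000018086 was the other member without overlap. Expressed as lowest, median and highest, the levels were 89.4, 116 and 129 CPM at 400 mg/kg, against 149, 189 and 231 CPM at 150 mg/kg. The log2 fold change was -0.82 (SE 0.23, edgeR adjusted p = 0.0430; 115 ± 14.5 against 189 ± 35.8 CPM, SD, n = 6 each). This call is near the threshold: leaving out 1 library ended it in 11 of 12 cases, all except 150 mg/kg 2420, with adjusted p up to 0.0924. It was also lost with limma-voom, without a filter and without the third set.

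ENSRNOG00000010079 fell to 622, 973 and 2165 CPM as its lowest, median and highest levels at 400 mg/kg, against 1438, 2473 and 3440 CPM at 150 mg/kg. Liver 2426, at 2165 CPM, lay within the 150 mg/kg range and the other 5 livers lay below it. The log2 fold change was -1.22 (SE 0.30, edgeR adjusted p = 0.0215; 1133 ± 535 against 2467 ± 753 CPM, SD, n = 6 each). The call was lost without the third set and within the second set alone, 5 against 5 livers each. The edgeR adjusted p was 0.124 in the second set. The log2 fold change was -1.33 to -1.21 over the 9 other settings and -1.51 to -1.09 over the 12 fits without 1 library. ENSRNOG00000040195, ENSRNOG00000018086 and ENSRNOG00000010079 all belong to co-varying group 6 of 5 members, so these 3 calls share the livers' common deviations and are not separate observations.

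ENSRNOG00000009273 had lowest, median and highest levels of 399, 454 and 566 CPM at 400 mg/kg, against 539, 895 and 1884 CPM at 150 mg/kg. Only 2421, at 566 CPM, reached into the 150 mg/kg range, and 150 mg/kg liver 2419 was far above its group. The log2 fold change was -1.20 (SE 0.22, edgeR adjusted p = 0.00368; 462 ± 62.7 against 986 ± 476 CPM, SD, n = 6 each). Within the second set alone the edgeR adjusted p was 0.0857. The log2 fold change was -1.25 to -1.13 over the 9 other settings and -1.32 to -0.904 over the 12 fits without 1 library. Vehicle livers averaged 706 ± 140 CPM (SD) and 30 mg/kg livers 855 ± 183 CPM (SD), both below the 150 mg/kg mean. From vehicle to 400 mg/kg the mean difference in log2(CPM + 0.5), which the rule limits, was -0.60.

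ENSRNOG00000047005 was the member that rose. The levels, lowest, median and highest, were 9.91, 19.5 and 31.0 CPM at 400 mg/kg, against 5.12, 9.37 and 15.6 CPM at 150 mg/kg, and the ranges overlapped. The log2 fold change was 0.96 (SE 0.28, edgeR adjusted p = 0.0499; 19.6 ± 7.89 against 9.38 ± 3.77 CPM, SD, n = 6 each). The 30 mg/kg livers had a median of 14.8 CPM, above those of vehicle and 150 mg/kg, at 8.49 and 9.37 CPM. The call held in 3 of 9 other settings and 3 of 12 fits without 1 library, with adjusted p up to 0.250.

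**Figure D4:**
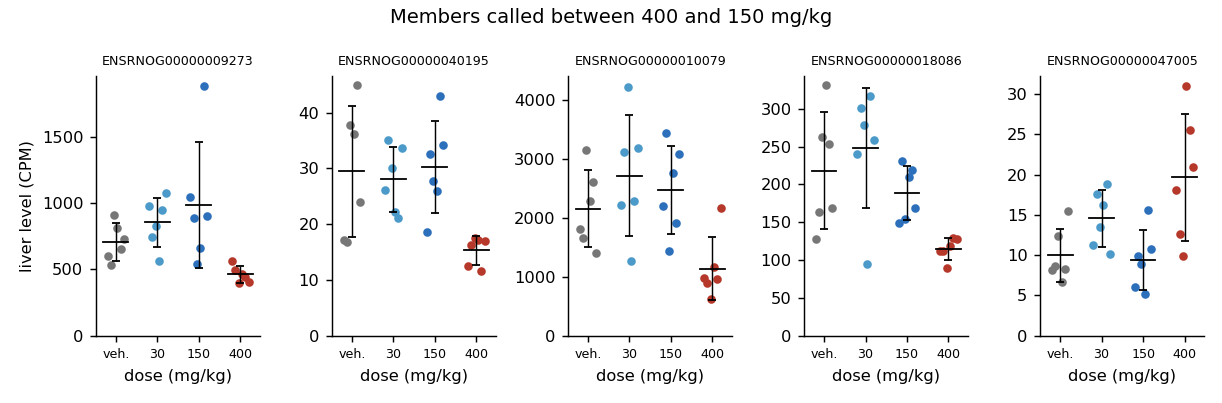
Liver levels (y, CPM) of the 5 members called between 400 and 150 mg/kg, with 1 point per library, the dose groups from vehicle to 400 mg/kg along x, and the mean ± SD of 6 livers in black. At 400 mg/kg the 6 livers of ENSRNOG00000040195 lie at 11.5 to 17.5 CPM, below all 150 mg/kg livers, and those of ENSRNOG00000047005 at 9.91 to 31.0 CPM overlap them.

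Testis libraries of the same title number gave a second measurement that the spread rule had not used. The labels do not say that a shared number is a shared animal. Mean testis levels of members were at most 1.97 CPM, with a median of 0.293 CPM, and each member had reads in at least 1 testis library. For the 42 members that averaged at least 0.5 CPM in testis, deviations from the dose-group means were correlated between liver and testis over the 24 numbers. Without each gene's highest testis library, 39 of the 42 would reach that limit, and ENSRNOG00000010079 reached it through testis 2414 alone, with a mean of 0.972 CPM, or 0.286 CPM without it. Permutations of the numbers within dose groups, 2-sided, gave p-values that were adjusted over the 6491 genes above the same limits. Of the 42 members, 2 were called, both positive, where 1% of the 6491 genes were called, and 2 of 299 other liver-restricted genes were. The members' median r was 0.0486, beside 0.0298 over all genes.

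ENSRNOG00000017286 was low in both tissues at the same numbers. Title numbers 2408, 2423 and 2426, with 6.35 to 11.8 CPM in liver, had 0.308, 0.486 and 0.496 CPM in testis, from 14 to 17 reads. The other 21 had 31.3 to 85.4 CPM in liver and 1.22 to 2.98 CPM in testis, from 40 to 107 reads, so the ranges were apart in both tissues. The adjusted permutation p over 24 numbers was 0.0354. Since the numbers fall into separate clusters, no pooled r is given. Within the 21 numbers r was 0.495 (unadjusted permutation p = 0.0392) and Spearman's rho was 0.508 (unadjusted permutation p = 0.0333). It was r = 0.335 without the 2 numbers farthest from the median in liver. The split at the gap was made after the call and from these same levels, and its p-values were not adjusted over genes. They are a description.

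ENSRNOG00000000795 showed the same arrangement at other numbers. Title numbers 2408, 2419 and 2424, with 2.47 to 3.42 CPM in liver, had 0.637, 0.366 and 0.489 CPM in testis, from 14 to 29 reads. The other 21 had 7.13 to 17.5 CPM in liver and 0.914 to 2.50 CPM in testis. The adjusted permutation p over 24 numbers was 0.0484. Within the 21 numbers r was 0.300 (unadjusted permutation p = 0.224) and rho was 0.221 (unadjusted permutation p = 0.375), so the relation rests on the 3 low numbers. Number 2408 was low for both genes, and the other low numbers differed between them. With Spearman's correlation neither gene was called, at adjusted p of 0.0649 for ENSRNOG00000017286 and 0.443 for ENSRNOG00000000795, and with a pseudocount of 2 only ENSRNOG00000017286 was. Without the third set, which holds 2408, neither was called, at 0.151 and 0.273, and the genes called among all 6491 were 26 in place of 65. The low numbers that were left, 2423 and 2426 for ENSRNOG00000017286 and 2419 and 2424 for ENSRNOG00000000795, were still the lowest in both tissues.

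Among the other members with a gap of at least 1, only ENSRNOG00000007564 averaged 0.5 CPM or more in testis. It had 1.005 to 1.45 CPM in testis at the 9 numbers that were high in liver, and 0.731 to 1.63 CPM at the 15 that were low. Its correlation between the tissues was -0.241 (permutation p = 0.286, adjusted p = 0.889; Spearman's rho -0.383, permutation p = 0.0599). It was -0.127 without the 2 farthest numbers. The remaining 5 had 0 to 13 reads per testis library, too few to compare. Among them ENSRNOG00000000768 had 1 to 12 reads, with 3, 2 and 4 reads at the numbers of its 3 low livers.

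Co-varying group 4 had 6 of its 7 members at 0.5 CPM or more in testis, and all 6 had a positive correlation, of 0.412 to 0.677. Without the 2 farthest numbers of each gene these were 0.177 to 0.581. Among all 42 members 25 had a positive correlation, and among the 6491 genes 3573 had one. The highest in group 4 was that of ENSRNOG00000022218. Its lowest, median and highest testis levels were 1.55, 1.74 and 2.53 CPM among vehicle testes, 1.34, 1.92 and 2.05 CPM at 30 mg/kg, 1.28, 2.02 and 2.30 CPM at 150 mg/kg, and 1.16, 1.90 and 2.11 CPM at 400 mg/kg. Its r was 0.677 (permutation p = 0.0017, adjusted p = 0.109) and its rho 0.631 (permutation p = 0.00328, adjusted p = 0.165), with r = 0.581 without the 2 farthest numbers. None of the 6 passed the adjusted threshold, with adjusted p of 0.109 to 0.709. These 6 members co-varied in liver, so their correlations are not separate observations.

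**Figure D5:**
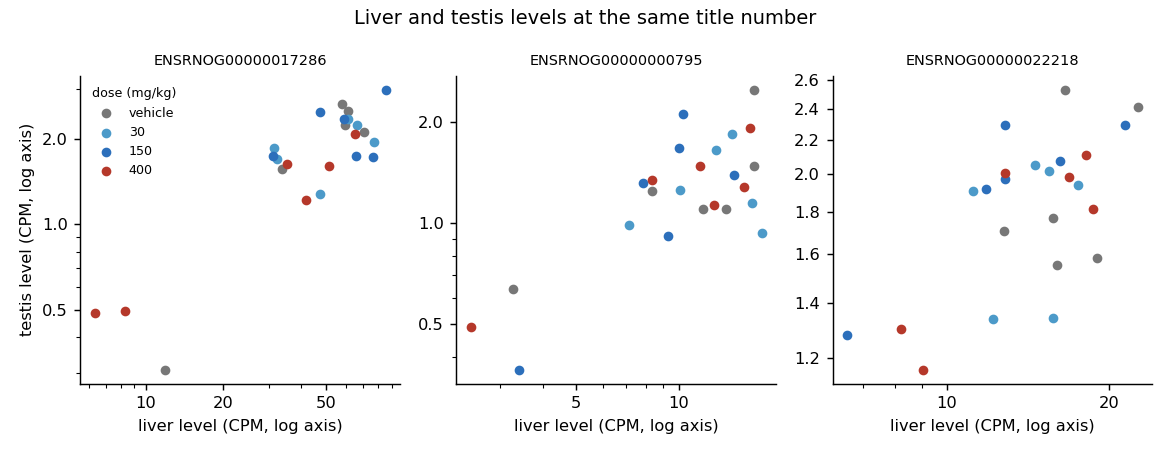
Testis level (y, CPM, log axis) against liver level (x, CPM, log axis) at the same title number for 3 members, 24 points each, coloured by dose. ENSRNOG00000017286 and ENSRNOG00000000795 each have 3 numbers that are lowest in both tissues, at 0.308 to 0.496 and 0.366 to 0.637 CPM in testis, apart from the other 21; ENSRNOG00000022218 forms 1 continuous cloud.

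Testis library 2414, at 30 mg/kg, held reads of a pair of members that other testes nearly lacked. ENSRNOG00000012404 had 136 reads there, or 3.05 CPM, and 0 reads in the other 23 testis libraries. ENSRNOG00000010079 had 748 reads, or 16.8 CPM, and at most 19 reads in any other testis library. ENSRNOG00000021405, whose mean in liver was 2136 CPM, had 0 reads in testis 2414. Other genes with at least 10 times the CPM of any other testis there included ENSRNOG00000013552 and ENSRNOG00000018445, with liver means of 1792 and 936 CPM. ENSRNOG00000012181 had a liver mean of 13.5 CPM. ENSRNOG00000010805, ENSRNOG00000024923 and ENSRNOG00000058006 had liver means of 1.84, 0.153 and 0.210 CPM. The source of these reads was not tested. Liver 2414 had 389 CPM of ENSRNOG00000012404 and 3178 CPM of ENSRNOG00000010079, within the range of the other livers.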

How the data were processed

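Each deposited file gives 1 library's whole-number counts of reads by gene, made by the authors with CASAVA 1.8, HISAT2 and HTSeq 0.6.1, per the submitters' processing notes. The libraries came from a stranded mRNA kit, per the labels' protocols; which genome build was used, and whether counting used strand, is not given in the sources used here. Reads without a unique alignment were counted for no gene, so genes with near-identical copies are less certain. The 5 lines that name no gene took up 39.8% to 46.1% of liver reads, and 34.9% to 36.9% of testis reads, and entered neither library sizes nor tests.

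Differential expression was tested on all 24 livers in R 4.3.3 by edgeR 4.0.16 (TMM scaling, filterByExpr, robust quasi-likelihood fit, 1 mean per dose, Benjamini-Hochberg adjustment over 13275 genes); it was repeated with DESeq2 1.42.0, limma-voom 3.58.1, RLE size factors, other filters, the 12 libraries compared, the third set or, across sets, each set as a term, the third set left out, 1 set alone, and each library left out. Correlations used deviations of log2(CPM + 0.5) from dose-group means; liver was set against testis with 100000 permutations of title numbers within dose groups (numpy 2.4.6, scipy 1.17.1). The steps were tested on simulated data. No batch is named in the labels, and the sets were inferred from mapping quality and depth.

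Testis libraries 2407 and 2408 have a vehicle title and a dose of 0, but another label names myclobutanil; they were kept as vehicle. Whether a title number stands for 1 animal is not stated, and p-values therefore reflect variation among libraries, which may be technical. The members and lists were chosen with earlier results of these data known. Members were to be named if among the 10 highest SDs, the 3 leading each co-varying group, those called, the 3 on either side of the limit or the 5 with the highest CPM. Members with a gap, those compared with testis and those in testis 2414 were named after their values were seen. The pathway lists and cell type markers could not be applied without gene names, and no sequence could be tied to an ID.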

Additional observations from a re-analysis of the deposited data

Results flagged for a closer look

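Dixon's test was made 68 times, for 17 members in each of the 4 liver dose groups of 6 libraries. These were the 10 members with the highest SD, those with a gap, ENSRNOG00000000795 and those called between doses. In 11 cases, from 9 libraries, 1 liver stood apart from the rest of its group. Chance marks about 1 in 20 groups, but the members were chosen for the spread of these same values, so the number of cases is a description and is not set against that rate. The cause was not tested. ENSRNOG00000000768 was far below its group in vehicle liver 2403 (0.0552 CPM), 30 mg/kg liver 2409 (0.303 CPM) and 150 mg/kg liver 2415 (0.152 CPM). ENSRNOG00000010731 was low in vehicle liver 2406 (2.27 CPM) and 150 mg/kg liver 2415 (1.59 CPM). ENSRNOG00000007564 was high in 30 mg/kg liver 2413 (50.4 CPM), and ENSRNOG00000029844 in 150 mg/kg liver 2420 (149 CPM) and 400 mg/kg liver 2422 (116 CPM). ENSRNOG00000033619 was low in 150 mg/kg liver 2420 (62.9 CPM), ENSRNOG00000000795 in 400 mg/kg liver 2424 (2.47 CPM) and ENSRNOG00000018086 in 30 mg/kg liver 2412 (95.2 CPM). Of these, only 2415 belongs to the third set.

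In testis, library 2414 at 30 mg/kg, a third-set library, had 16.8 CPM of ENSRNOG00000010079 and 3.05 CPM of ENSRNOG00000012404, above every vehicle testis, at most 0.517 and 0 CPM. In all, 9 genes had at least 100 reads in 1 testis library and at least 10 times the CPM of the next, and 8 of them had them in 2414.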

How the results depend on the processing

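Membership, the median absolute correlation between members, the largest co-varying group, the number of members with a gap and the calls against vehicle at 30 mg/kg and at 150 against 30 mg/kg kept their values within 1.5 times under the alternatives run: 85 to 97 of the 100 members were shared with other settings (91 to 99 without 1 liver), the correlation was 0.19 to 0.201, the largest group had 6 to 10 members and 6 to 8 members had a gap. At 150 mg/kg against vehicle, DESeq2 called 2 members in place of 0, beside 499 of 13275 genes tested in place of 198. Between 400 and 150 mg/kg the 5 calls stood beside 664 of 13275 genes tested. They became 10 with DESeq2, beside 1051 of 13275 genes, and 3 without a filter, beside 418 of 20602. Fewer livers gave 2 calls without the third set, beside 393 of 13240 genes, and 2 within the second set, beside 68 of 12945. Without 1 library the calls were 3 to 5. They were 3 without 150 mg/kg 2415, 2416, 2417 or 2418 or 400 mg/kg 2421, 2424, 2425 or 2426. RLE size factors, the third set as a term and the 12 libraries alone gave 4, beside 635 of 13275, 598 of 13275 and 288 of 12930 genes. ENSRNOG00000040195 was called in all 9 settings and all 12 fits without 1 library, with adjusted p of 9.63e-05 to 0.0242; the cause of the lost calls of the other 4 was not tested. No fold change called between these doses changed sign. The 2 members called between liver and testis were 0 with Spearman's correlation, 0 without the third set, where 20 numbers were left and the remaining low numbers were still lowest in both tissues, and 1 with a pseudocount of 2; these alternatives, those for the gaps and each set as a term were chosen after seeing the data. No paired analysis was possible because the dose groups compared share no title number. The SD expected from the reads alone covers counting error only.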
